A study of Mus musculus with 19 samples.

Results

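The nephric duct is the epithelial tube of the embryo that grows backwards beside the gut, joins the cloaca, and buds to form the ureter and the collecting ducts of the kidney. A small set of transcription factors builds it, and 8 genes of that program and its surroundings were followed through a sort of embryonic hindgut epithelium: Emx2, Emx2os, Cdh16, Pax2, Pax8, Gata3, Lhx1 and Wt1. They are the rows with these symbols among the 24062 genes of the deposited count table. All 8 were found. The genes were chosen by their read counts in the hindgut libraries, which were in view when the list was drawn up, so their course over the embryonic ages is given as a description, and where calls of a test across all genes are counted for them, nothing is read from the count.

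The hindgut libraries came from wild-type CD1 embryos at E11, E12, E14 and E16, with 2 biological replicates per age. Cells were freed with trypsin and sorted for the epithelial surface protein Epcam, which the nephric duct, as an epithelium, can also carry, and whether the dissection included duct or cloacal tissue is not stated. The adult libraries beside them held colonic epithelial cells (strain background C57BL/6 129/Sv mixed). They were wild-type stem cells sorted on the reporter alleles Ascl2(mCh); Lgr5Dtr-Egfp+ (3 libraries), regenerating cells of the same genotype after diphtheria toxin at 50 ug/kg, given 4 times to kill stem cells (2 libraries), and Ascl2 KO stem cells of the genotype Ascl2Fl/Fl; Lgr5EGFP-Cre+ (2 libraries), whose mice received tamoxifen at 2 mg on days 1 and 2 and 1 mg on day 3. The ages of the adult mice are not given. Cre in the knockout cells is carried by the Lgr5 allele, so deletion is limited to cells that use that allele. Strain and library kit differ between the embryonic and adult sets, which were scaled and tested apart.

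Pax2 and Pax8 are paired-box factors that act together to specify the duct, and Gata3 and the LIM-homeodomain factor Lhx1 act with them in its growth. Emx2 is a homeodomain factor needed for the ureteric bud, and Emx2os is the RNA transcribed from the opposite strand of its locus. Cdh16 encodes kidney-specific cadherin, an adhesion protein of duct and tubule epithelium. Wt1 is a zinc-finger factor of the nephrogenic mesenchyme, the coelomic lining and the gonad, and is not a duct gene in the strict sense. None of the 8 is restricted to the kidney: several also serve in the inner ear, spinal cord, thyroid or blood.

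Emx2 and Emx2os lie head to head on chromosome 19 (Emx2 59458690 to 59465357, Emx2os 59425104 to 59458635, GRCm38), with 54 bases between the RefSeq gene models. The 250 bases upstream of the RefSeq starts of Emx2, Pax8 and Lhx1 are shown because these genes moved together over age and, of the windows found, theirs are the ones with a shared short motif. In each, a CCAAT box, the binding letters of a general promoter factor, stands in capitals (CCAAT, or ATTGG on the other strand), and the sequence runs 5′ to 3′ on the gene's own strand, from chr19:59458440-59458689 (plus strand), chr2:24475600-24475849 (minus strand) and chr11:84525535-84525784 (minus strand).
Emx2: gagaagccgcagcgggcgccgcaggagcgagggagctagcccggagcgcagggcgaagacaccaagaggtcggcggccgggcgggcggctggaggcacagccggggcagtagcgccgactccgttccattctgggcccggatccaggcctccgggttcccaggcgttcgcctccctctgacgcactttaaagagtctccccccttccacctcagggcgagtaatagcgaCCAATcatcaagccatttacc
Pax8: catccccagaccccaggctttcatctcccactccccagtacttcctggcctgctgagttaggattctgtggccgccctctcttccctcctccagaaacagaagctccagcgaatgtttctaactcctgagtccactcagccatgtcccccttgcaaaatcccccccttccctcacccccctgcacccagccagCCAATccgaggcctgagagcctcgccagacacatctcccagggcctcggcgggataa
Lhx1: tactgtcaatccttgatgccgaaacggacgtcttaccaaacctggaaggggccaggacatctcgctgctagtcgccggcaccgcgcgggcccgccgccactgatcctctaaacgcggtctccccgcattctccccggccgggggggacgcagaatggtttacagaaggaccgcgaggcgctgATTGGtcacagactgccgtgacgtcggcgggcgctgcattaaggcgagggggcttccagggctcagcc
The first base of the box lay 21 bases upstream of the start in Emx2, 57 in Pax8 and 68 in Lhx1. The Emx2 window also covers the start of Emx2os. RefSeq windows were found for 5 of the 8 genes, 7 windows in all. A CCAAT box was found in 33.8% of all 32851 windows of this length. The box was looked for after the sequences had been read. The homeodomain core TAATTA (4.84% of all windows), the GATA site AGATAA (9.99%) and the paired-domain core GTCACGC (1.78%), searched on both strands, were not in any of the 7.

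Levels are given as CPM, read counts divided by library size and scaled with TMM factors for library composition, and 1 read was worth 0.0325 to 0.0752 CPM in the hindgut libraries. Reads assigned to genes ranged from 13826958 to 30583908 per hindgut library and from 16553279 to 30074569 per adult library. Epcam stood at 911 to 1428 CPM in all 8 hindgut libraries. A list of 16 neural genes summed to 249.8 and 353 CPM at E11 and to 238.5 and 171.4 CPM at E12. Of that list, Isl1 was at 183.8 and 299.5 CPM at E11, and Stmn2 at 33.78 and 10.97 CPM. Sox1 and Olig2 of the same list, factors of the neural tube, had no reads at E11 or E12. Whether the sort held neural cells was not tested. At E16 the sort held more RNA of other cells: 12 stromal genes summed to 9182 and 7973 CPM, against 226 to 352 CPM in the 6 earlier libraries, and 7 blood genes to 1997 and 2089 CPM, against 24.3 to 310 CPM. Replicates of 1 age differed by more than sampling noise at every age and were treated as separate samples. In these bulk libraries, fewer duct cells in the sort and less RNA per cell cannot be told apart.

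Pax2, the paired-box gene of the early duct (chromosome 19, 44746601 to 44838269), was at 15.8 and 10.1 CPM in the E11 replicates 1 and 2. At E12 it was at 1.02 and 0.349 CPM. A single read remained at E14 and none at E16. Both E11 libraries thus lay above both E12 libraries, and the pooled level was 18.8-fold higher at E11 (95% counting interval 13.6 to 26.8). The fitted log2 fold change from E11 to E12, -4.24 with all libraries, was -5.19 without E12 replicate 1 and -3.66 without E12 replicate 2.

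Pax8, its close relative (chromosome 2, 24420551 to 24475599), was at 27.4 and 9.93 CPM at E11 and at 2.90 and 0.453 CPM at E12. Its E14 values were 0.218 and 0.166 CPM and its E16 values 0.246 and 0.602 CPM, from 4 to 8 reads per library. E11 did not overlap with any later age, with a pooled level 10.9-fold that of E12 (8.82 to 13.6), and E14 and E16 were not separated (ratio of E14 to E16 0.47, interval 0.175 to 1.22). The fitted log2 fold change from E11 to E12 was -3.47, and -2.57 without E11 replicate 1 and -5.34 without E12 replicate 1, a spread wider than the counting interval.

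Lhx1, the LIM factor of the growing duct (chromosome 11, 84517975 to 84525534), was at 33.7 and 30.9 CPM at E11. It was at 5.48 and 1.67 CPM at E12, and E14 and E16 each held 1 read in all. The E11 replicates were close to each other and the E12 replicates were not. The pooled E11 level was 9.11-fold that of E12 (7.86 to 10.6). On the fitted log2 scale the fold of -3.17 became -4.26 without E12 replicate 1 and -2.56 without E12 replicate 2.

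Gata3, a zinc-finger factor of the duct that is also used by lymphoid and skin cells (chromosome 2, 9857078 to 9887953), had close replicates and never reached 0. The E11 libraries held 200.3 and 186.8 CPM and the E12 libraries 38.8 and 39.6 CPM. The E14 libraries held 9.84 and 11.9 CPM and those of E16 15.7 and 16.9 CPM. The 4 ages did not overlap, in the order E11, E12, E16 and E14. The pooled level at E11 was 4.92-fold that of E12 (4.70 to 5.16), which was 3.60-fold that of E14 (3.27 to 3.97). The higher level at E16 than at E14 coincided with higher stromal and blood sums and with Ptprc, the common leukocyte antigen, at 95.1 and 116.9 CPM against 2.00 and 1.66 CPM. Their part in the Gata3 level was not tested.

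Emx2 was at 100.4 and 76.0 CPM at E11, from 2673 and 2342 reads. At E12 it was at 6.35 and 1.22 CPM, and no read was counted at E14 or E16. The E11 level was 23.4-fold that of E12 (20.4 to 27.0) and at least 859-fold higher than at E16, taking 3 reads over both E16 libraries as the floor. The fitted log2 fold change from E11 to E12, -4.54, was -6.17 without E12 replicate 1 and -3.79 without E12 replicate 2.

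Emx2os followed its neighbour, at 33.3 and 24.3 CPM at E11 and 1.89 and 0 CPM at E12, with no reads at E14 or E16. The pooled E11 level was 30.8-fold that of E12 (23.4 to 41.4), and all E12 reads came from replicate 1. The strand setting of the counting is not stated. The 2 gene models do not overlap in RefSeq, but reads near the shared start could be assigned to either if the annotation used differs.

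Cdh16, the cadherin (chromosome 8, 104601915 to 104624396), had the widest gap between E11 replicates, at 68.3 and 14.4 CPM. It was at 19.7 and 5.96 CPM at E12, 2.70 and 4.69 CPM at E14, and without reads at E16. The lower E11 library lay below the higher E12 library, so those ages overlapped. E14 lay below both, and Cdh16 was the member with the most reads left at E14 after Gata3, with 62 and 113. The pooled E11 level was 10.6-fold that of E14 (9.08 to 12.4) and at least 388-fold higher than at E16. The fitted log2 fold change from E11 to E12, -1.69, was -0.18 without E11 replicate 1 and -2.79 without E12 replicate 1.

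Wt1 (chromosome 2, 105126529 to 105173614) took another course. It was at 0.752 and 0.844 CPM at E11, was at 4.54 and 2.47 CPM at E12, and stood at 0.522 and 0.498 CPM at E14 and 1.23 and 0.978 CPM at E16. E12 did not overlap with any other age. The E11 level was 0.23 of the E12 level (0.163 to 0.318). The fitted log2 fold change from E11 to E12, 2.13, was 1.63 without E12 replicate 1. Over the 8 libraries the correlation of log2(CPM + 1) between Wt1 and each of the other 7 lay between -0.109 and 0.18, while the other 7 correlated with each other at 0.777 to 0.995. These points share age and library, and the values are descriptive.

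**Figure D1:**
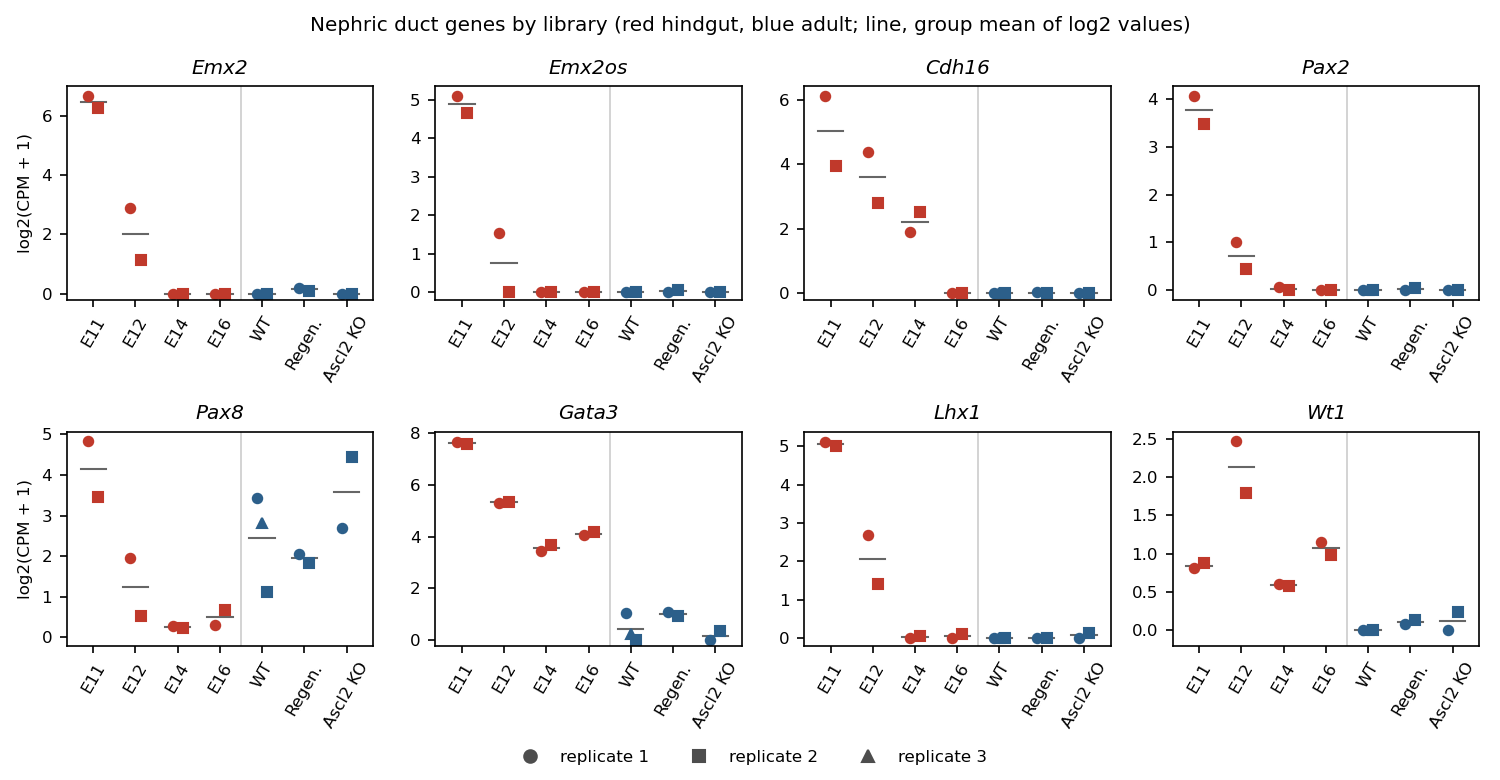
Level of each of the 8 genes as log2(CPM + 1), 1 point per library, by embryonic age (red) and adult group (blue), with the group mean as a line. Emx2, Emx2os, Pax2, Pax8, Gata3 and Lhx1 have both E11 libraries above all later hindgut libraries, Cdh16 overlaps between E11 and E12, and Wt1 is highest at E12. The genes were chosen with these values in view. The share of all genes without overlap between ages was not counted, so nothing is read from it.

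The edgeR quasi-likelihood test over all 16481 genes of the hindgut set, adjusted by Benjamini-Hochberg, called 2 of the 8 genes lower at E12 than at E11 (Emx2 and Gata3), where 0.874% of all genes were called lower and 2.63% in either direction. From E12 to E14 it called 5 of 8 lower (background 13.9%, 28.3% in either direction), from E14 to E16 Cdh16 lower (background 19%) and Gata3 higher (20.6%), and from E11 to E16 all but Wt1 lower (26.2%, 55.7% in either direction). As the choice of genes used these values, the counts only restate it. They also moved with the fit. From E11 to E12 the number called lower was 1 without E11 replicate 1 or without any 1 library of E14 or E16, 4 without E12 replicate 1, and 5 with DESeq2, which called 1 higher. From E12 to E14 it lay between 2 (without either E14 library) and 7 (without E12 replicate 2). From E14 to E16 the call of Cdh16 was lost without either E16 library, and that of Gata3 without E14 replicate 1 or E16 replicate 2. All 8 passed the filter on low counts, most of them through the ages at which they were high.

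Beside the 8, 21 other genes of the nephric duct and ureteric bud were read from a list of textbook genes. That list was drawn up with earlier results of these data known, so its calls are not independent of these data. Of the 21 genes, 20 passed the filter, and Emx1, at 0.357 CPM or less, did not. Between E11 and E12, edgeR called 5 of the 20 lower and none higher, where the background was 0.874% lower and 1.76% higher. Calb1, Ret, Npnt and Tfap2a were among them. The median log2 fold change of the 20 was -1.14, and that of all genes 0.0049. DESeq2 called 8 lower and 1 higher, and leaving out E12 replicate 2 left 3 lower.

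Calb1, calbindin, a calcium-binding protein of duct and bud cells, was at 686.5 and 519.5 CPM at E11 and at 15.1 and 20.3 CPM at E12. It had no reads at E14 and was at 1.91 and 4.14 CPM at E16. The log2 fold change from E11 to E12 was -5.09 ± 0.30 (SE, adjusted p = 0.00191), with no overlap between the ages. Its call held in all 13 alternative fits.

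Ret, the receptor tyrosine kinase through which the bud tip answers GDNF, was at 160 and 134.2 CPM at E11 and at 8.89 and 2.06 CPM at E12 (log2 fold change -4.75 ± 0.59, SE, edgeR adjusted p = 0.0115). At E14 it was at 2.00 and 1.12 CPM. Unlike Emx2, Pax2 and Lhx1, it was high again at E16, at 51.2 and 58.2 CPM (5.13 ± 0.64 from E14, adjusted p = 0.00084). Its level at E16 was still called lower than at E11 (-1.43 ± 0.50, adjusted p = 0.0418), a call lost in 8 of 13 alternative fits. Ret is also the receptor of enteric nerve precursors, and at E16 the neuronal tubulin gene Tubb3 (45.5 and 43.6 CPM, from 0.610 and 0.332) was higher as well. Whether nerve cells account for the Ret signal was not tested.

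Npnt, nephronectin, a matrix ligand of integrins in the bud, was at 218.8 and 181.3 CPM at E11 and at 92.1 and 75.2 CPM at E12 (log2 fold change -1.26 ± 0.17, SE, edgeR adjusted p = 0.0168), a call lost without E12 replicate 2. Tfap2a, a factor of ectoderm and duct, was at 10.93 and 12.04 CPM and then at 1.56 and 0.523 CPM (-3.46 ± 0.65, adjusted p = 0.0402). That call was lost in 6 of 13 alternative fits, among them the fit with a replicate block and the one without E12 replicate 2.

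Other genes with a place in the duct were lower at E12 without passing the test. Wnt9b, the duct signal to the mesenchyme, was at 43.0 and 33.3 CPM at E11 and at 3.99 and 2.06 CPM at E12 (edgeR adjusted p = 0.146). Sim1 was at 9.69 and 14.7 CPM and then at 0.980 and 0.174 CPM (adjusted p = 0.0644). Tfap2b was at 12.9 and 44.4 CPM and then at 3.05 and 1.22 CPM (adjusted p = 0.0558). In all 3 the E11 and E12 libraries did not overlap. The share of all genes without such overlap was not counted, so nothing is read from it, here or for the genes above.

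Also on the list, Wnt11, Etv4, Etv5, Mecom, Fras1, Bmp7 and Spry1 had no call from E11 to E12. Gfra1, the co-receptor of Ret, was at 59.3 and 51.6 CPM at E11 and at 20.9 and 34.1 CPM at E12 (edgeR adjusted p = 0.099). At E14, when Ret was near its lowest, Gfra1 was above its E12 level, at 46.6 and 40.7 CPM. Wnt7b, Sox8 and Pkhd1 were not called in this step either.

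Later, edgeR called 4 of the 20 lower from E12 to E14 (among them Calb1, Tfap2b and Wnt11) and 2 higher (Bmp7, lost in 4 of 13 alternative fits, and Etv4), beside backgrounds of 13.9% and 14.4%. From E14 to E16 12 were lower and 2 higher (Ret and Calb1), beside backgrounds of 19% and 20.6%. From E11 to E16, 18 were lower and 1 higher (Spry1, an antagonist of receptor kinases, lost without E16 replicate 2), beside 26.2% and 29.6% of all genes. Without E16 replicate 1, 15 were lower. The median log2 fold change from E11 to E16 was -2.47, and 0.051 over all genes. Several of the 20 passed the filter through the ages at which they were high.

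**Figure D2:**
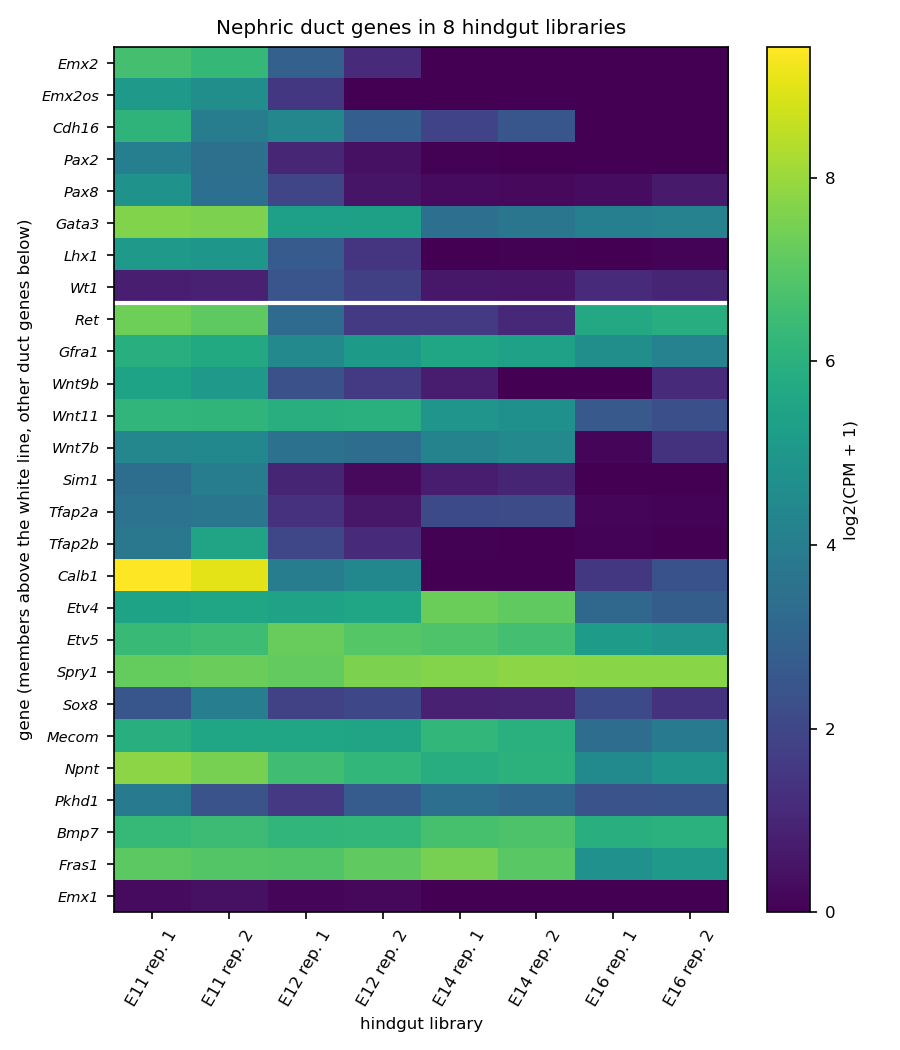
Level as log2(CPM + 1) in colour for the 8 genes (above the white line) and other duct and bud genes (below), with 1 column per hindgut library. Calb1, Ret, Wnt9b, Sim1 and Tfap2b are high at E11 and low at E12 like most of the upper block, while Spry1 and Bmp7 stay bright at E12 and E14.

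Genes of the mesenchyme that the duct enters were read in the same way. Of 18 genes of nephrogenic and intermediate mesoderm, 17 were tested between E11 and E12. None was called lower, while Gdnf, the ligand of Ret, and the integrin gene Itga8 were called higher. The shares of all genes were 0.874% lower and 1.76% higher. The median log2 fold change of the 17 was nevertheless below 0, at -0.661, and that of all genes was 0.0049. Gdnf was at 1.16 and 0.487 CPM at E11, 3.48 and 5.33 CPM at E12 and 21.0 and 17.5 CPM at E14 (log2 fold change from E11 to E12 2.42 ± 0.49, SE, edgeR adjusted p = 0.0486). The call of Gdnf was lost in 9 of 13 alternative fits and that of Itga8 in 7, among them each fit without an E12 library. Hoxd11, a patterning gene of kidney and hindgut, was at 44.8 to 56.8 CPM in the 4 libraries of E11 and E12. Cited1, a gene of the nephron progenitors, was at 87.3 and 48.5 CPM at E11 and 36.9 and 49.0 CPM at E12. Tcf21, a factor of kidney and gut stroma, was at 110.2 and 105.7 CPM at E16 and at most 8.93 CPM before.

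Several genes of mature kidney were at or near 0. Aqp2 and Pvalb had no reads in any hindgut library, and Nphs1, of the podocyte slit, did not exceed 0.581 CPM. Of the 12 genes in that list 6 passed the filter, and none was called between E11 and E12. Of all genes 2.63% were called in that step, so nothing is read from that absence. Lrp2, the endocytic receptor megalin, which embryonic epithelia also use, was at 20.9 and 17.7 CPM at E11, 10.3 and 5.40 CPM at E12 and at most 3.40 CPM later. Cubn, its partner, was at 2.10 and 11.8 CPM at E11 and at 35.6 and 28.2 CPM at E16, and Aqp1 was at 11.9 and 11.7 CPM at E16.

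Because Wt1 also marks the coelomic lining and the gonad, 8 genes of those tissues were read beside it. Of these, 6 were tested and none was called between E11 and E12, where 2.63% of all genes were called in either direction. Nothing is read from that absence. The mesothelial gene Msln, at 5.77 and 13.0 CPM at E12, peaked at E14 (85.3 and 90.3 CPM), when Wt1 was at its lowest. Podxl and Aldh1a2 showed no call in the step either, at 86.8 and 83.3 CPM and at 33.5 and 48.1 CPM at E12. The gonadal factors Lhx9 and Nr5a1 were at 0.907 and 0.508 CPM in E12 replicate 1 and had no reads in E12 replicate 2 or at E11. Amhr2 of the same list had 28 reads in E12 replicate 2 and none in replicate 1, and Gata4 had 27 and 15 reads in replicates 2 and 1.

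Of the 10 genes of urothelium and cloaca, none was called between E11 and E12, where 2.63% of all genes were called in either direction. Nothing is read from the absence of calls in so short a list. Shh, the signal of cloacal and gut endoderm, was at 312 and 352 CPM at E11 and 363 and 383 CPM at E12. Upk1a was at 128.5 and 63.8 CPM and then at 96.3 and 159.8 CPM, and Grhl3 at 18.3 and 28.0 CPM and then at 28.9 and 29.4 CPM. Of 16 hindgut endoderm genes, 5 were called higher at E12 (among them Cdh1, Cdh17, Hnf4a and Vil1) and Cdx1 lower. Of all genes, 1.76% were called higher and 0.874% lower. The summed level was 4208 and 4068 CPM at E11 and 4701 and 5303 CPM at E12, while the 8 genes followed here summed to 480 and 353 CPM and then to 80.6 and 51.8 CPM. Krt19, Epcam and Krt8, the most abundant of that list by CPM, had no call in this step.

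**Figure D3:**
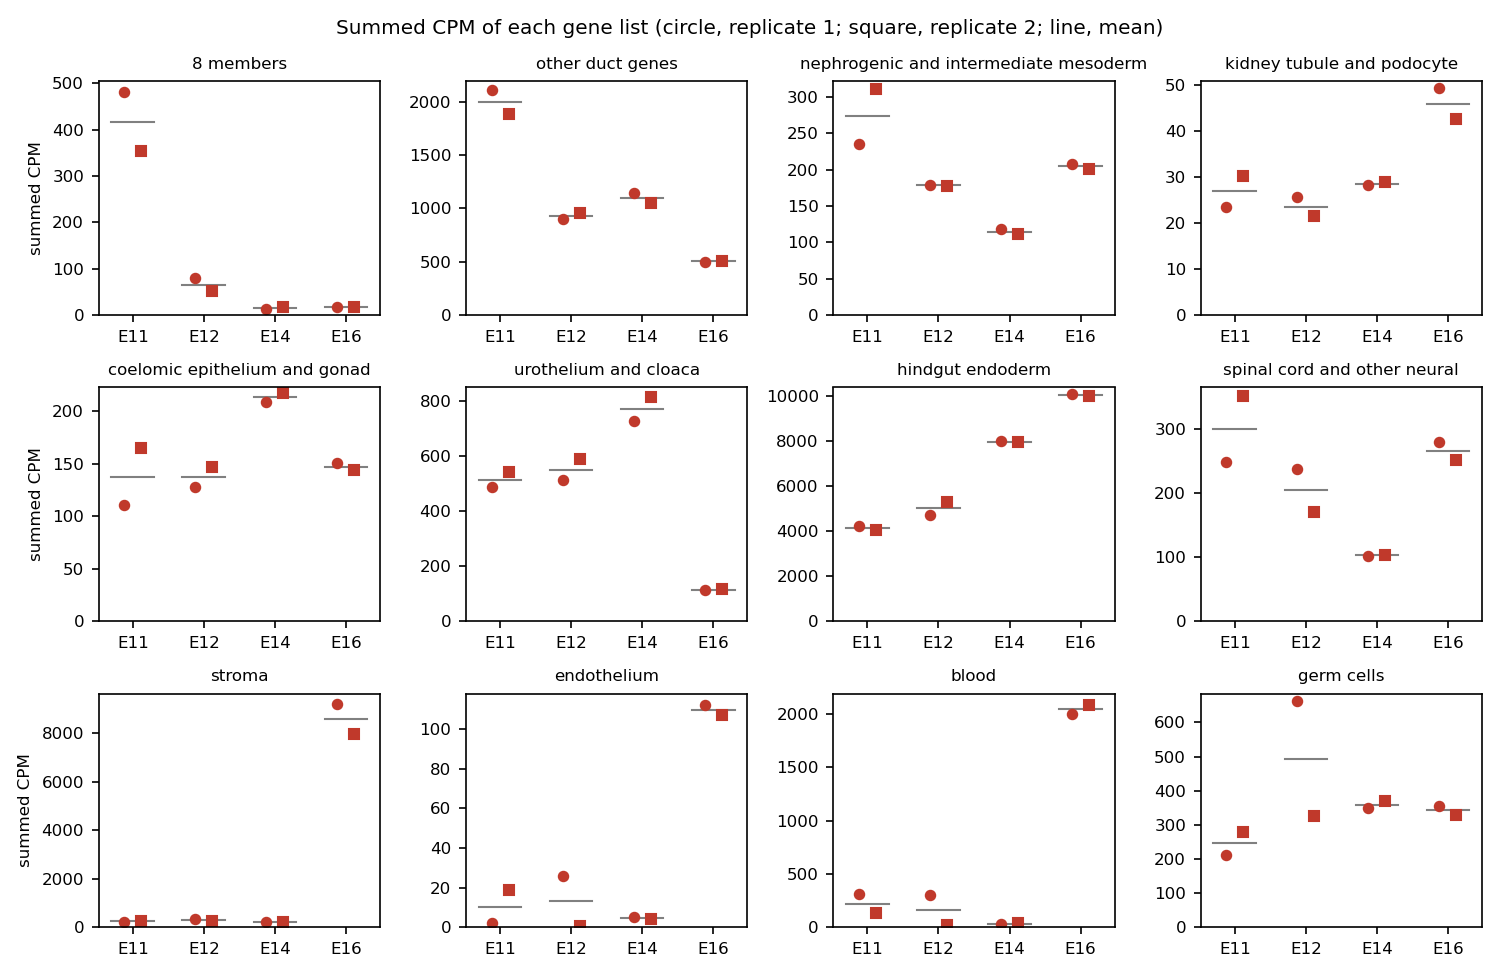
Summed CPM of each gene list in the 8 hindgut libraries, by age, with a circle for replicate 1, a square for replicate 2 and a line for their mean, each panel on its own axis from 0. The 8 genes followed here sum to 480 and 353 CPM at E11 and to 13.3 and 17.3 CPM at E14, while the hindgut endoderm sum is higher at each later age and the stromal and blood sums are highest at E16.

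The replicates of an age did not hold the duct genes equally, and this comparison lies within an age. At E12, 7 of the 8 were higher in replicate 1, where 49.3% of all 16481 genes were. Of the 7, 5 (Emx2, Emx2os, Cdh16, Pax8 and Lhx1) were at least 2-fold higher on the scale of CPM + 1. Such a difference was shown by 4.09% of all genes, with 1.74% at least 2-fold higher in replicate 2. Emx2 was 5.21-fold higher in replicate 1 (95% counting interval 3.60 to 7.71), Pax8 6.41-fold (3.54 to 12.6), Cdh16 3.31-fold (2.78 to 3.95) and Lhx1 3.28-fold (2.35 to 4.63). Emx2os had 52 reads in replicate 1 and none in replicate 2. Gata3 was equal within counting error, at a ratio of 0.978 (0.899 to 1.06). There is 1 library on each side, so the ratios compare libraries.

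Among the other duct genes Ret shared that tilt, at 4.32-fold (3.24 to 5.85), and so did Sim1 (5.62, 2.13 to 18.7), Tfap2a (2.98, 1.63 to 5.78), Tfap2b (2.5, 1.67 to 3.82) and Wnt9b (1.94, 1.40 to 2.71). Calb1 was at 0.745 (0.655 to 0.846), Gfra1 at 0.613 (0.552 to 0.680) and Pkhd1 at 0.341 (0.246 to 0.466). Of the 21 genes beside the 8, 9 were higher in E12 replicate 1 and 12 in replicate 2. Markers of some other cells were also higher in E12 replicate 1, where 49.3% of all genes were. The germ cell genes summed to 662 and 327 CPM, with 8 of 9 higher in replicate 1 (Dppa3 at 130.9 and 12.1 CPM). Endothelial genes summed to 25.8 and 0.871 CPM, with 7 of 8 higher in replicate 1 and Tek without reads in either library. Blood genes summed to 301 and 24.3 CPM with 5 of 7 higher, and stromal genes to 352 and 253 CPM with 11 of 12 higher. Nephrogenic genes were level at 178.5 and 178.1 CPM. Other sums were higher in replicate 2. Endoderm genes summed to 4701 and 5303 CPM, with 11 of 16 higher in replicate 2 and 5 in replicate 1. Coelomic and gonadal genes summed to 128.4 and 146.8 CPM, and urothelium and cloaca genes to 511 and 587 CPM. The part of any of these cells in the tilt of the duct genes was not tested.

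At E11, 7 of the 8 were again higher in replicate 1, with 2 of them at least 2-fold, where 4.68% of all genes showed such a gap and 5.18% showed it towards replicate 2. Cdh16 was 4.73-fold (4.26 to 5.25) and Pax8 2.76-fold (2.41 to 3.17) higher, while Emx2 (1.32, 1.25 to 1.40), Gata3 (1.07, 1.03 to 1.11) and Lhx1 (1.09, 0.993 to 1.19) differed little. Of the nephrogenic mesoderm genes 12 of 18 were higher in replicate 2 and 6 in replicate 1, where 47.8% of all genes were higher in replicate 1. Osr1, the earliest factor of that tissue, was at 9.62 CPM in replicate 1 and 64.6 CPM in replicate 2, and Six2, of the nephron progenitors, at 0.526 and 10.7 CPM. Cited1 (1.80-fold, 1.69 to 1.92), Crym (2.13, 1.69 to 2.70), Gdnf (2.39, 1.25 to 4.77) and Hoxd11 (1.27, 1.18 to 1.36) of that list were higher in replicate 1. Krt5, a basal keratin of the urothelium and cloaca list, was at 0.0376 and 42.1 CPM. Of the 10 genes of that list, 6 were higher in replicate 2 and 4 in replicate 1, among the latter Upk1a (128.5 and 63.8 CPM). Blood genes summed to 310 and 138 CPM and endothelial genes to 2.22 and 18.9 CPM, so that the E11 replicates differed in more than 1 kind of marker, and the part of these cells was not tested.

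**Figure D4:**
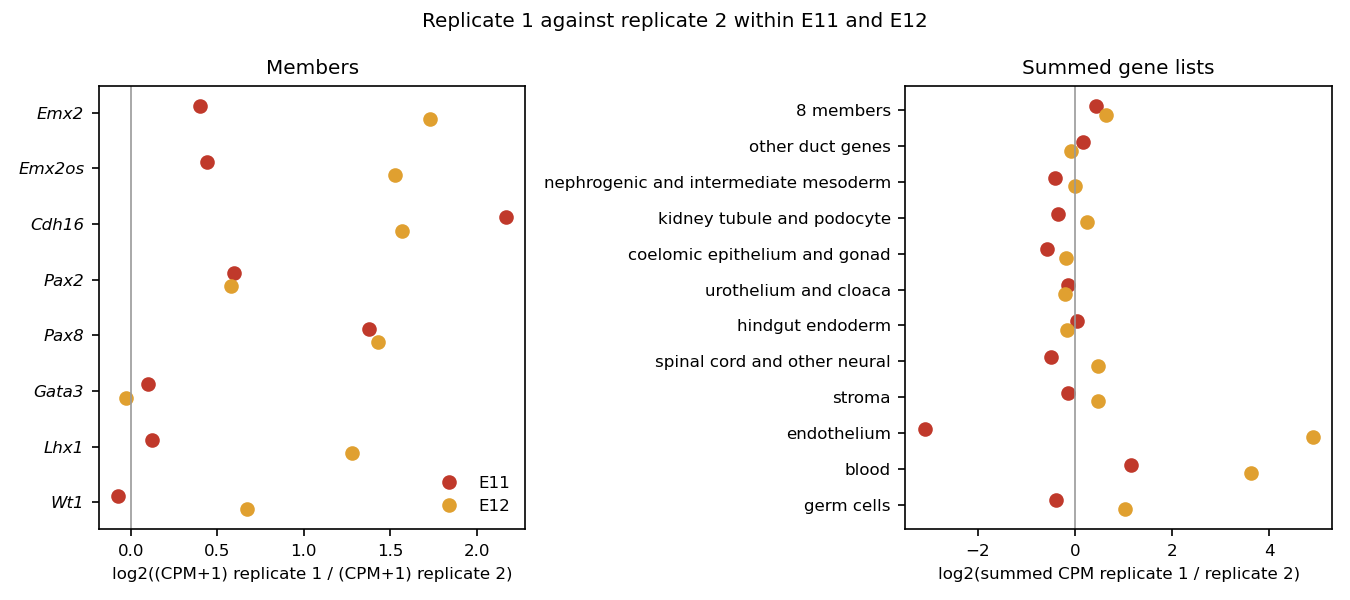
Left, log2 ratio of replicate 1 to replicate 2 on CPM + 1 for each of the 8 genes at E11 (red) and E12 (yellow); right, log2 ratio of the summed CPM of each gene list. Cdh16 and Pax8 lie right of 0 at both ages, Emx2, Emx2os and Lhx1 lie far right only at E12, Gata3 stays near 0, and the endothelial sum is at -3.09 at E11 and 4.89 at E12.

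Genes with the most similar course were found by Pearson correlation of log2(CPM + 1) over the 8 hindgut libraries, among genes with at least 5 CPM in 1 library. Emx2 was nearest to Lhx1 (r = 0.995), the antisense transcript Lhx1os (0.995) and Pax2 (0.988). Lhx1 was nearest to Emx2, Tbcc (0.995) and 1810044D09Rik (0.992). Pax2 was nearest to 4930412O13Rik (0.996), Spink8 (0.996) and Emx2os (0.994), and Emx2os to 4930412O13Rik (0.999), Pax2 and Calcr (0.994). Spink8, a serine protease inhibitor gene, was at 29.4 and 13.2 CPM at E11, 1.81 and 0.418 CPM at E12 and at most 0.185 CPM later, and was also nearest to Pax8 (0.990), before Prmt8 (0.988) and Ttbk2 (0.982).

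Cdh16 was nearest to Dguok (0.985), Dcdc2a (0.982) and Tmem222 (0.982). Of these, Dcdc2a shared the replicate pattern of Cdh16, at 29.4 and 11.1 CPM at E11 and 13.4 and 4.15 CPM at E12, while Dguok was at 84.8 and 65.4 CPM at E11 and still at 36.7 and 36.8 CPM at E16. Gata3 was nearest to Polr1d (0.996), Calb1 (0.995) and 1810044D09Rik (0.988), and Wt1 to Rnaseh1 (0.969), Kat2b (0.952) and Il17d (0.938). With 8 libraries of 4 ages, high values are common: Emx2 had r of at least 0.95 with 76 of 13511 genes and Gata3 with 125, but Wt1 with 2.

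In the adult colon, 6 of the 8 genes did not pass the filter. Emx2 had 5 and 2 reads in the regenerating libraries and none in the other 5. Emx2os, Cdh16, Pax2 and Lhx1 had 1 read each in all 7 adult libraries together. Wt1 had 2 and 3 reads in the regenerating libraries, 2 in 1 knockout library and none in wild type. These are set beside E11 only as levels, since strain, age, kit and scaling differ.

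Pax8 and Gata3 were tested, in fits that recovered few simulated 2-fold changes (11 of 100 in regenerating and 10 of 100 in knockout cells). Pax8, the thyroid and kidney paired-box gene, was at 9.80, 1.17 and 6.00 CPM in wild-type stem cells, 3.17 and 2.58 CPM in regenerating cells and 5.53 and 20.6 CPM in Ascl2 KO cells. Knockout and wild-type libraries overlapped, and so did regenerating and wild-type libraries. Neither comparison passed: the log2 fold change was -0.98 ± 0.88 (SE, edgeR adjusted p = 0.846, 0.472 to 1 over the alternative fits) in regenerating and 1.21 ± 0.84 (adjusted p = 0.301, 0.147 to 1) in knockout cells against wild type. Gata3 was at 1.09, 0 and 0.188 CPM in wild type, 1.14 and 0.902 CPM in regenerating and 0 and 0.275 CPM in knockout cells. It passed in neither comparison (1.25 ± 1.86, adjusted p = 0.939, and -1.60 ± 2.15, adjusted p = 0.602; 0.727 to 1 and 0.339 to 0.898 over the alternatives). Of all genes, 0.331% were called in regenerating cells (0.302% higher, 0.0288% lower) and 36.2% in knockout cells (18.8% higher, 17.4% lower). The sign of the knockout value turned without 1 library for both genes, Pax8 without knockout replicate 2 (-0.036) and Gata3 without wild-type replicate 1 (0.53).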

How the data were processed

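RNA sequencing of 15 libraries (8 hindgut, 7 adult colon) was used. The deposited values are unnormalised counts of reads for each gene, made by the authors with STAR 2.5.3a and HTSeq on GRCm38 and mm10, per the submitters' processing notes; annotation release and strand setting are not given in the sources used here. Another 5 rows name no gene and were left out; reads without a feature made up 5.77 to 9.77% of all reads in a library. Groups were taken from the sample titles, and column names were matched to them (Resting to wild type).

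Hindgut and adult libraries were fitted apart with edgeR 4.0.16 in R 4.3.3: filterByExpr by group, TMM scaling, quasi-likelihood F test, two-sided, Benjamini-Hochberg adjustment over all genes tested (16481 and 13911), threshold 0.05. Each fit used group as the term, so the spread was estimated over all groups of a fit (edgeR common BCV 0.31 and 0.513). Adult replicates are not stated to be separate animals, so those p-values measure the spread between these samples. Ratios between ages use reads pooled over an age with an exact binomial 95% interval; a group with 0 reads was set to a floor of 3. Intervals and floors cover counting error only, since reads carry no molecular identifiers. Alternatives were RLE scaling, library size alone, DESeq2 1.42.0, no filter, a replicate block, and each library left out. Fits were tested on simulated data. Of 100 2-fold changes, 49 to 56 were recovered in the hindgut comparisons, 11 in regenerating and 10 in knockout cells against wild type. Of 100 4-fold changes, 76 to 87, 61 and 59 were recovered. Coordinates and upstream sequences come from RefSeq (GRCm38.p6).

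The 8 genes and all lists were chosen with earlier results of these data known. Named genes are the 8, the duct and bud list and the 3 nearest by correlation. The 3 genes of highest mean CPM in hindgut are named for the nephrogenic, kidney tubule, coelomic, urothelium and endoderm lists. For the neural and germ cell lists only Isl1, Stmn2 and Dppa3 of these are named, and for stroma, endothelium and blood none. Others were chosen after their values were seen (Gdnf, Itga8, Osr1, Six2, Ptprc, Tubb3, Lhx9, Nr5a1, Amhr2, Gata4, Crym, Krt5, Nphs1, Aqp2, Pvalb, Sox1, Olig2, Tek and the endoderm genes called). Some genes of the lists are not reported here by name. The single-cell and ChIP-seq data were not used here.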

Additional observations from a re-analysis of the deposited data

How the results depend on the processing

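Replicate numbers did not pair the hindgut libraries: the correlation of replicate differences between ages lay between -0.067 and 0.0368, and in adult groups between 0.025 and 0.134. With a replicate block the number of genes called from E11 to E12 was 266 instead of 434; in the other comparisons it stayed within 1.5 times, and of the duct and bud list 4 instead of 5 genes were called lower in that step. DESeq2 called 2431 genes from E11 to E12 and 372 in regenerating against wild-type cells, where edgeR called 46 and, without the filter, 225. Leaving out 1 library (a lone library is assumed to vary like the other groups) gave 119 to 919 calls from E11 to E12, 1717 to 5846 from E12 to E14 (4672 with all), 3468 to 7888 from E14 to E16 (6530), 6385 to 9209 from E11 to E16 (9188), 1 to 39 in regenerating and 3413 to 4577 in knockout cells (5039) against wild type. The lowest counts came without E14 replicate 1 (the first 3 steps), E16 replicate 1 (E11 to E16), wild-type replicate 1 or regenerating replicate 2 (regenerating), and knockout replicate 1 (knockout), and fewer libraries enter these fits. By library size alone, knockout calls were 1233 higher and 5328 lower instead of 2618 and 2421, the median log2 fold change over all genes moving by -0.98, and by -0.18 in regenerating cells. Over left-out libraries the knockout value (log2) of Pax8 ranged from -0.036 without knockout replicate 2 to 1.87, and that of Gata3 from -6.65 to 0.53 without wild-type replicate 1. The cause of these changes was not tested beyond the fewer libraries. With 2 libraries per age, counts of 1 to 3 reads cannot separate E14 from E16.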
